A study of Homo sapiens with 9 samples.

Results

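The genes described here are 47 factors that carry out the initiation, elongation and termination of translation on cytosolic ribosomes, taken by name from a list: 2 subunit joining and anti-association factors, 12 factors of start site selection and the ternary complex, 13 subunits of eIF3, 12 factors of cap binding and mRNA unwinding, and 8 factors of elongation and termination. No measured value entered the rule, but the factors were chosen with earlier results of these data known. Of the 47, 46 had a row among the 15354 genes of the table, and EEF1G was not analysed here. All 46 had a level of at least 1 CPM (reads of a gene per total of its library, brought to a common total) in 3 or more of the 9 libraries, as did 13893 genes in all, which were the genes tested.

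The study asked which transcripts respond to depletion of SNHG5, a long non-coding RNA. HCT116 cells, an established human colorectal carcinoma line, were reverse transfected with siRNA at 25 nM and harvested after 36 h, and oligo-dT purified RNA was read as single ends of 50 bases. The groups were a commercial non-targeting control siRNA and a pair of siRNAs directed at SNHG5, labelled A and B, with 3 biological replicates each, and every group came from the same line and saw the same transfection reagent. Library totals ran from 15566530 to 23277549 reads.

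SNHG5 itself (chr6:86360209-86388650, GRCh37, minus strand) went against the labels. It measured 31.3, 22.1 and 25.9 CPM in the control libraries, 71.5, 58.8 and 67.3 in the libraries labelled siRNA A and 46.2, 50.3 and 46.1 in those labelled siRNA B, so that all 6 libraries labelled as knock-down were higher than every control. The groups are therefore called control, A-labelled and B-labelled throughout. The study reported by qRT-PCR that its siRNAs lowered SNHG5 in HCT116 cells, and the reason for the difference was not tested. Sequence that SNHG5 shares with other genes was not examined. The epithelial markers EPCAM, CDH1, KRT8, KRT18, KRT19 and CDX2 were all present. After the TMM scaling set out below, their summed level was 1749 to 1899 CPM in control, 3042 to 4024 in A-labelled and 2336 to 2495 in B-labelled libraries. The sum followed the keratins: 3 markers (KRT8, KRT18 and KRT19) were higher and 2 (EPCAM and CDX2) lower in A-labelled libraries by the test set out below, and KRT8 was higher and CDX2 lower in B-labelled libraries. The part of this difference in the results below was not tested. Of the 6 immune, stromal and endothelial markers, 2 had a row (COL1A1 and LYZ). On the same scale, their sum was 15.3 to 17.6 CPM in control, 10.8 to 13.8 in A-labelled and 8.72 to 9.88 in B-labelled libraries.

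Levels below are CPM after TMM scaling, in which a trimmed mean of log ratios between libraries sets a factor for each library. Fold changes are differences of group means of log2(CPM + 1), given with their standard error, and p-values are from limma with Benjamini-Hochberg adjustment over all genes tested, with 0.05 as the threshold. A gene past it is said to be higher, lower or changed. A further 18 alternative settings were run, among them other scalings, a correction for GC content, the replicate number as a block and leaving out each library in turn. The TMM factors averaged 1.14 in control, 0.886 in A-labelled and 0.988 in B-labelled libraries, and without them the median log2 fold change of all genes moved from −0.02 to −0.34 for A-labelled and from 0.0043 to −0.18 for B-labelled libraries. Directions are therefore relative to the TMM scale. The factors that stayed higher than control with library totals alone are listed with the counts below. A higher call against control for any other factor was lost on that scale, also where this is not repeated with the factor. More factors were lower than control on that scale.

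Translation begins when a complex of eIF2, GTP and initiator tRNA is loaded onto the small ribosomal subunit together with eIF1, eIF1A, eIF5 and the large scaffold eIF3. The subunit is recruited to the mRNA cap by eIF4E, the scaffold eIF4G and the helicase eIF4A, scans to the start codon and is joined by the large subunit, after which eEF1A delivers aminoacyl-tRNA and eEF2 drives translocation. Many mRNAs of the translation machinery start with a C followed by a run of pyrimidines (a 5′ terminal oligopyrimidine, or TOP, start), a feature through which mTOR signalling is known to control their translation. Colorectal carcinoma cells depend on high rates of protein synthesis, and several of these factors are studied as drug targets.

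The annotated 5′ ends of the factors are shown first because they divide the factors by a feature of sequence that the choice of members did not use. RefSeq promoter windows (GRCh38.p14) were found for 39 factors. Of these, 9 (23.1%) had a C at the annotated first base and at least 4 further C or T in an unbroken run, against 1104 of 27305 windows of all genes (4.04%). These are given below as 30 bases on the transcribed strand, of which the first 15 lie before the annotated first base. Capitals mark the pyrimidine run, which starts at that base.

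EEF1A1: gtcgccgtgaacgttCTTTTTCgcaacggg
(chr6:73521018-73521047, minus strand)
EEF2: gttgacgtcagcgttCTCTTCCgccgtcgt
(chr19:3985449-3985478, minus strand)
EIF2S3: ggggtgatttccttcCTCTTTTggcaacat
(chrX:24054941-24054970, plus strand)
EIF3D: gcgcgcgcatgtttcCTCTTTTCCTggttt
(chr22:36529152-36529181, minus strand)
EIF3F: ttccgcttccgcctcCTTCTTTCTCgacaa
(chr11:7987322-7987351, plus strand)
EIF3K: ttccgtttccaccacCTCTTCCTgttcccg
(chr19:38619173-38619202, plus strand)
EIF3M: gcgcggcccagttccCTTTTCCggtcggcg
(chr11:32583816-32583845, plus strand)
EIF4A2: gttgggcgccgctgtCTTTTCagtcgggcg
(chr3:186783562-186783591, plus strand)
EIF4B: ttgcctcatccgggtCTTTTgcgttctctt
(chr12:53006441-53006470, plus strand)

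EIF3B and EIF4G1 have an annotated start without such a run. They are shown because their fold changes were the lowest in the B-labelled libraries, so the pair does not describe the other factors without the run. EIF5 and EIF1B lack the run as well, with log2 fold changes of 0.86 and 0.72 in the same libraries. Counts in both directions follow below.

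EIF3B: ccccgtcgcacgcacatggctgggctgtag
(chr7:2354812-2354841, plus strand)
EIF4G1: tctgtgcggggagccggaaatggttgtgga
(chr3:184314591-184314620, plus strand)

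The scan was chosen after the values had been seen, so its groups are described and not tested. Of the 9 factors with the C start, 8 were higher and none was lower in A-labelled libraries than in control (median log2 fold change 0.71), and 4 were higher and none lower in B-labelled libraries (median 0.36). Among the 29 other factors with a window and a row, 18 were higher and 5 lower in A-labelled libraries (median 0.51), and 8 were higher and 4 lower in B-labelled libraries (median 0.14). Of all genes tested, 23.9% were higher and 27.6% lower in A-labelled libraries, and 15.6% were higher and 18.3% lower in B-labelled libraries. With library totals alone the medians of the C-start factors were 0.34 and 0.15 and those of the others 0.14 and −0.07. An annotated first base is one of several that a gene may use, and these letters say nothing of which start these cells used.

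Across the 46 factors, 32 were higher, 6 were lower and 8 did not pass the test in A-labelled libraries against control. Of all genes tested, 23.9% were higher and 27.6% lower in that comparison. The median log2 fold change of the factors was 0.56, against −0.02 for all genes. In B-labelled libraries, 17 factors were higher and 4 lower, with 15.6% of all genes higher and 18.3% lower, and the median was 0.23 against 0.0043. These shares of all genes are also the ones to set beside the counts by complex below. With library totals alone, 13 factors were higher and 8 lower in A-labelled libraries (1257 and 6532 of all 13893 genes) and 9 were higher and 9 lower in B-labelled libraries (958 and 4127 of all genes). On that scale the medians were 0.19 and 0.05, against −0.34 and −0.18 for all genes. The 13 were EIF1AX, EIF2S3, EIF2B4, EIF3E, EIF3H, EIF3L, EIF4E, EIF4A1, EIF4A2, EIF4B, EEF1A1, EEF1B2 and EIF5A, and the 9 higher in B-labelled libraries were EIF1B, EIF5, EIF2S3, EIF3E, EIF3H, EIF3L, EEF1A1, EEF1B2 and EEF1D. In bulk RNA, fewer cells that make a transcript and less of it per cell cannot be told apart.

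The A-labelled and B-labelled libraries also differed from each other: 24 factors were higher and 4 lower in A-labelled libraries, with 17.6% and 19.5% of all genes, and 16 were higher and 6 lower with library totals alone. The 3 libraries of each group did not overlap at all for 32 factors that were higher and 6 that were lower in A-labelled libraries than in control (27.6% and 31.9% of all genes), and for 19 and 8 in B-labelled libraries (22.5% and 25.1%). Between A-labelled and B-labelled libraries there was no overlap for 28 factors that were higher and 6 that were lower in A-labelled libraries (22.6% and 25.0%). Both siRNA groups are compared with the same 3 control libraries, so the comparisons are not independent. The plot of fold changes by factor shows both siRNA groups side by side.

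**Figure D1:**
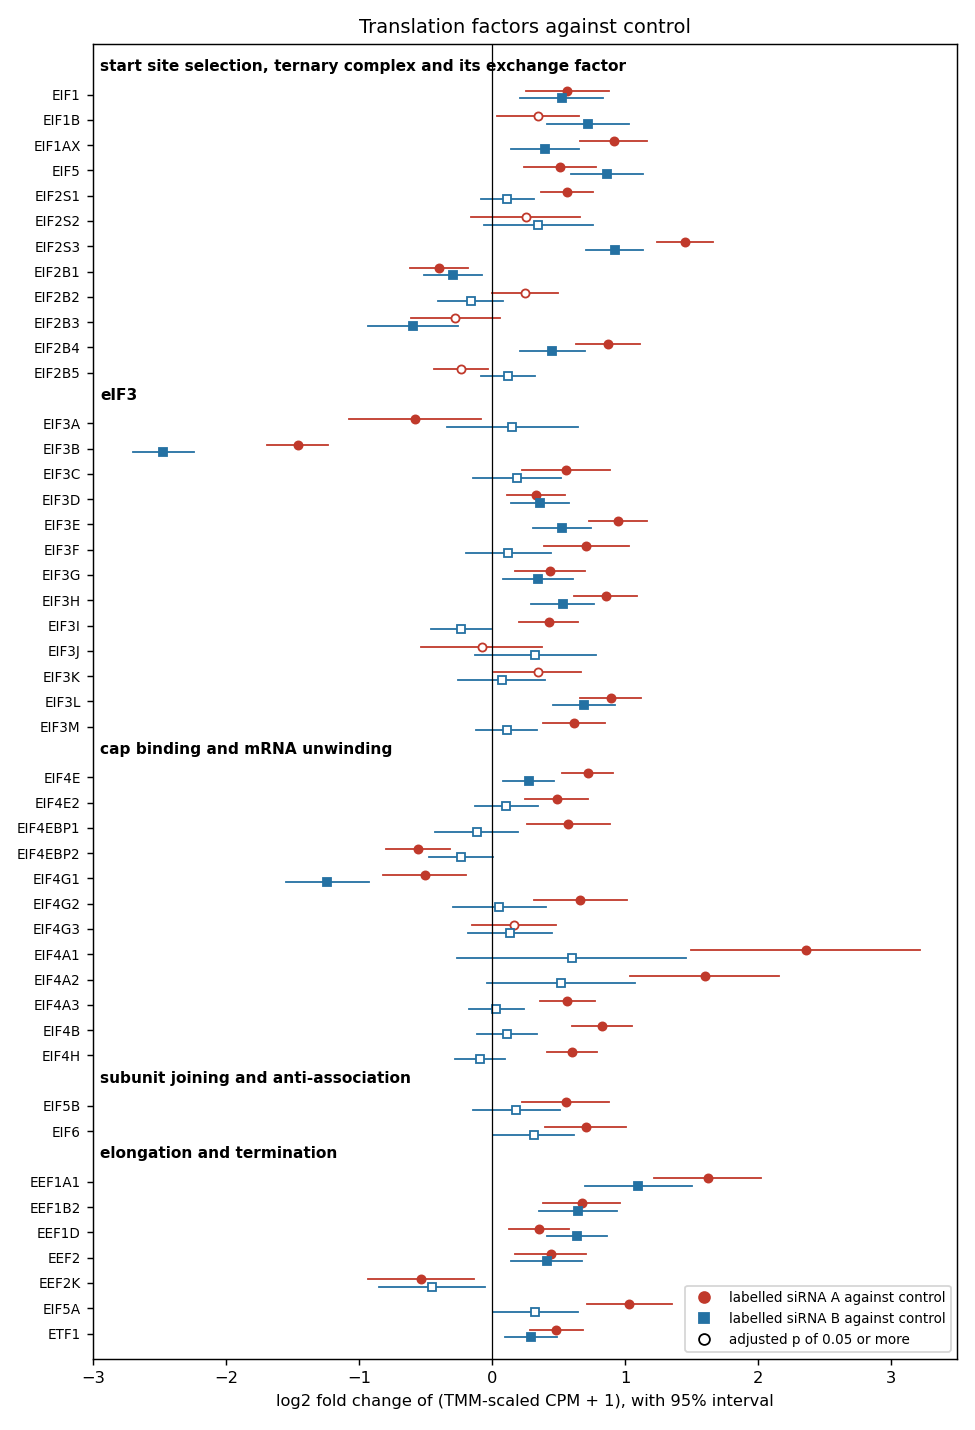
Log2 fold change of each translation factor on the log2(CPM + 1) scale after TMM scaling, grouped by role, for A-labelled and B-labelled libraries against control (points) with 95% confidence intervals (bars). Most points lie to the right of 0, while EIF3B (−1.46 and −2.47) and EIF4G1 (−0.51 and −1.24) lie to the left in both.

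eIF3, the largest initiation factor, holds the small subunit open for mRNA and binds eIF4G. Its subunits did not move together. EIF3B (chr7:2393721-2420380, GRCh37, plus strand), the core subunit that anchors EIF3G and EIF3I, measured 512, 488 and 507 CPM in control, 166, 209 and 172 in A-labelled and 90.0, 94.8 and 84.5 in B-labelled libraries. The 3 groups were fully separated, with control highest and B-labelled lowest. EIF3B was 0.363 of its control level in A-labelled libraries (log2 fold change −1.46 ± 0.11, limma adjusted p = 2.62e-06) and 0.180 in B-labelled libraries (−2.47 ± 0.11, limma adjusted p = 4.44e-07). It was also higher in A-labelled than in B-labelled libraries, by 1.01 ± 0.11 (limma adjusted p = 5.57e-05). None of the windows of 50 bases, the read length, in its canonical transcript was found in another annotated gene, and the calls held under all 18 alternative settings.

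Of the 12 other subunits, 9 were higher and 1 was lower in A-labelled libraries (median 0.50), and 5 were higher and none lower in B-labelled libraries (median 0.26). EIF3B was 1.96, 2.05 and 1.96 times the median level of these 12 in the control libraries. The same ratio was 0.506, 0.590 and 0.575 in A-labelled and 0.339, 0.380 and 0.317 in B-labelled libraries. The within-library ratio is the same under any scaling of whole libraries, up to the added count of 1, and shows a change of EIF3B relative to its partners of −1.84 and −2.53 log2 units. The contrast was named with results of these data known and is given without a test.

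EIF3E, EIF3L and EIF3H had the highest fold changes of the complex. EIF3E measured 407, 388 and 361 CPM in control, 733, 784 and 713 in A-labelled and 592, 529 and 547 in B-labelled libraries. No groups overlapped, and its log2 fold change was 0.95 ± 0.10 for A-labelled (limma adjusted p = 2.34e-05) and 0.53 ± 0.10 for B-labelled libraries (limma adjusted p = 0.00187). EIF3H measured 420, 365 and 426 CPM in control, 721, 810 and 663 in A-labelled and 583, 579 and 585 in B-labelled libraries. Its fold changes were 0.85 ± 0.11 and 0.53 ± 0.11 (limma adjusted p = 7.99e-05 and 0.00305), again with no overlap.

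EIF3L, which binds EIF3K at the rim of the complex, measured 285, 258 and 299 CPM in control, 513, 582 and 471 in A-labelled and 449, 460 and 450 in B-labelled libraries. EIF3L was higher in both (0.89 ± 0.11 and 0.69 ± 0.11, limma adjusted p = 5.31e-05 and 0.00053), although 56.6% of its 50-base windows were also found in other annotated genes. EIF3M measured 352, 289 and 327 CPM in control, 537, 463 and 483 in A-labelled and 352, 332 and 357 in B-labelled libraries. EIF3M was higher in A-labelled libraries than in control (0.62 ± 0.11, limma adjusted p = 0.000553) and than in B-labelled libraries (0.51 ± 0.11, limma adjusted p = 0.00327), and its B-labelled difference from control was 0.11 (95% interval −0.12 to 0.34).

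EIF3F and EIF3I were also highest in the A-labelled libraries. EIF3F measured 95.3, 76.5 and 75.7 CPM in control, 135, 154 and 118 in A-labelled and 85.5, 77.2 and 108 in B-labelled libraries, and was higher in A-labelled libraries than in control (0.71 ± 0.15, limma adjusted p = 0.00187). EIF3I, which sits next to EIF3B, measured 257, 236 and 246 CPM in control, 336, 357 and 303 in A-labelled and 220, 190 and 218 in B-labelled libraries. EIF3I was higher in A-labelled libraries (0.43 ± 0.10, limma adjusted p = 0.0046) and did not pass in B-labelled libraries (−0.24 ± 0.10, limma adjusted p = 0.0962), where all 3 values lay below the controls. With library totals alone the A-labelled call was lost (0.06, limma adjusted p = 0.676). On that scale EIF3I was lower in B-labelled libraries (−0.45, limma adjusted p = 0.00715).

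EIF3A, the scaffold that spans the complex, varied widely between replicates. It measured 1399, 832 and 1091 CPM in control, 853, 559 and 796 in A-labelled and 961, 1161 and 1565 in B-labelled libraries, so control and A-labelled libraries overlapped. Its A-labelled fold change of −0.58 ± 0.23 was just past the threshold (limma adjusted p = 0.049). The call was lost when control replicate 1 (adjusted p = 0.18), control replicate 3 (0.106), A-labelled replicate 2 (0.184), A-labelled replicate 3 (0.0688) or B-labelled replicate 2 (0.051) was left out, and with DESeq2 size factors or without the filter on low values (0.0568 and 0.0666).

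EIF3D, the cap-binding subunit, and EIF3G had smaller differences of 0.33 ± 0.10 and 0.44 ± 0.12 in A-labelled libraries (limma adjusted p = 0.0152 and 0.0102), and of 0.36 and 0.35 in B-labelled libraries. With library totals alone all 4 calls were lost, and EIF3D turned to −0.04 in A-labelled libraries. The EIF3D calls were also lost without control replicate 2 (adjusted p = 0.0626 and 0.0722), and the A-labelled one without A-labelled replicate 2 (0.0545). The B-labelled EIF3G call (limma adjusted p = 0.0442) was also lost without control replicate 2 or 3 (0.159 and 0.128), A-labelled replicate 2 (0.0506) or B-labelled replicate 1 or 3 (0.124 and 0.132). EIF3K, at 0.34, did not pass (limma adjusted p = 0.0757) but did with the replicate number as a block (0.0282) and in 5 other of the 18 alternative settings, and EIF3J, which is loosely bound, did not pass in A-labelled libraries (−0.08, 95% interval −0.53 to 0.38). EIF3C, at 2.40 to 5.52 CPM over the 9 libraries, was higher by 0.56 ± 0.15 in A-labelled libraries (limma adjusted p = 0.00956). Its level is uncertain, because 98.8% of its windows are shared with another gene (EIF3CL is a near-identical copy) and reads of copies can be lost in counting.

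**Figure D2:**
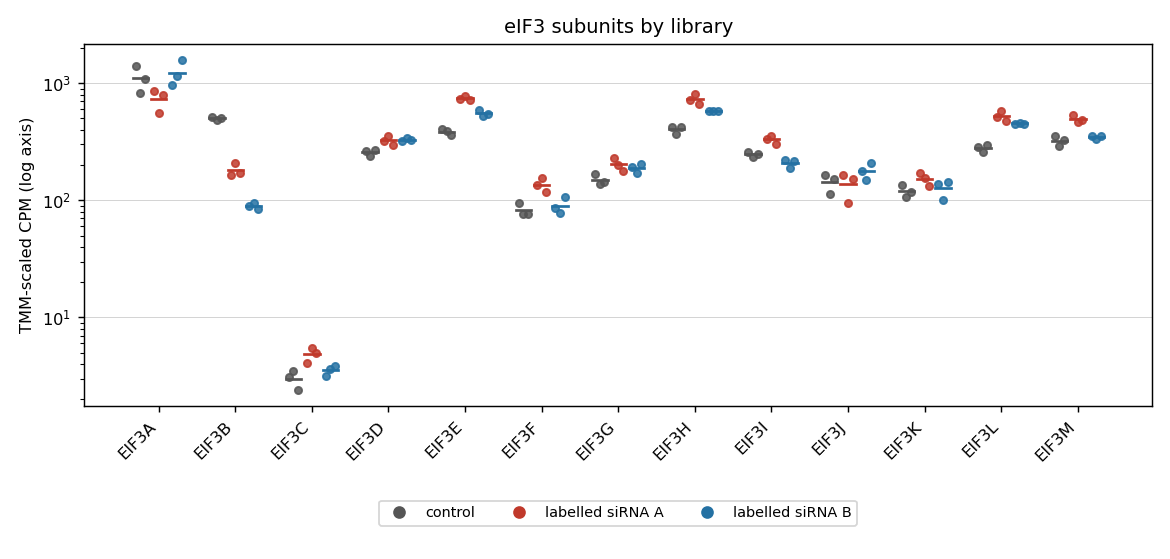
TMM-scaled CPM (log axis) of the 13 eIF3 subunits in each library, with points for single libraries and a bar at the mean of the 3 in control, A-labelled and B-labelled groups. The mean of EIF3B steps down from 502 CPM in control to 183 in A-labelled and 89.8 in B-labelled libraries, and EIF3E, EIF3H and EIF3L lie above control in both.

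Cap binding and unwinding factors often differed between A-labelled and B-labelled libraries. Of the 12 factors, 9 were higher and 2 lower in A-labelled libraries (median 0.59), and 1 was higher and 1 lower in B-labelled libraries (median 0.08). The B-labelled counts are 8.33% each, against 15.6% and 18.3% of all genes. In A-labelled against B-labelled libraries, 10 were higher and 1 was lower (median 0.65). EIF4G1 (chr3:184032283-184053146, GRCh37, plus strand), the scaffold that joins eIF4E, eIF4A and eIF3, measured 578, 814 and 739 CPM in control, 428, 564 and 503 in A-labelled and 293, 322 and 279 in B-labelled libraries. No B-labelled or A-labelled value reached the lowest control. EIF4G1 was lower, with a log2 fold change of −1.24 ± 0.14 in B-labelled libraries (limma adjusted p = 8.75e-05) and of −0.51 ± 0.14 in A-labelled libraries (limma adjusted p = 0.0114). The second call was lost without A-labelled replicate 1 (adjusted p = 0.0529) and with a correction for GC content (0.0804), but not with that correction and the replicate block together (0.0179).

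Its relatives EIF4G2 and EIF4G3 were not lower in either siRNA group. EIF4G2, which lacks the eIF4E binding site and serves cap-independent initiation, measured 1357, 1708 and 1690 CPM in control, 2115, 2928 and 2507 in A-labelled and 1586, 1912 and 1449 in B-labelled libraries. EIF4G2 was higher in A-labelled libraries (0.66 ± 0.16, limma adjusted p = 0.00486), with no overlap with control, and its B-labelled difference was 0.06 (95% interval −0.29 to 0.41). EIF4G3, the close paralog of EIF4G1, measured 49.4, 65.1 and 55.2 CPM in control, 56.5, 62.5 and 71.1 in A-labelled and 52.0, 73.0 and 62.5 in B-labelled libraries. The groups overlapped in every comparison, and the intervals of its differences ran from −0.15 to 0.48 and from −0.18 to 0.45. None of the windows of EIF4G1, EIF4G2 or EIF4G3 is shared with another gene.

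The eIF4A helicases EIF4A1 and EIF4A2 showed large fold changes together with a wide spread in the A-labelled libraries. EIF4A2 (chr3:186500994-186507686, GRCh37, plus strand) measured 204, 226 and 228 CPM in control, 508, 1037 and 559 in A-labelled and 275, 446 and 252 in B-labelled libraries. All 6 siRNA libraries were above every control, and replicate 2 was the highest of its group in both. EIF4A2 was higher in A-labelled libraries by 1.60 ± 0.26 (limma adjusted p = 0.000358), and by 1.28 without A-labelled replicate 2. Its B-labelled difference of 0.52 ± 0.26 did not pass (limma adjusted p = 0.139, and 0.0464 without A-labelled replicate 2, which enters the shared estimate of the spread). It also passed with the replicate block, with or without a GC correction (lowest limma adjusted p = 0.0195). The gene hosts several small nucleolar RNAs on its own strand, whose reads cannot be told apart from its own by strand. It also overlaps RFC4 on the other strand, and whether counting used strand is not known.

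EIF4A1 (chr17:7476142-7482324, GRCh37, plus strand), usually the more abundant eIF4A in dividing cells, measured only 4.43, 4.56 and 4.15 CPM in control, 17.8, 57.5 and 18.0 in A-labelled and 4.92, 12.3 and 5.83 in B-labelled libraries. Its fold change in A-labelled libraries was 2.36 ± 0.39 (limma adjusted p = 0.000482), and 1.82 without A-labelled replicate 2. In B-labelled libraries it did not pass (0.60, 95% interval −0.26 to 1.46, limma adjusted p = 0.267), but did with a GC correction and the replicate block together (0.0492). All (100%) of its 50-base windows are found in another annotated gene, among them the read-through gene SENP3-EIF4A1, so its level here is that of the reads the counting left to it and is uncertain. EIF4A3, the helicase of the exon junction complex, measured 220, 211 and 213 CPM in control, 312, 347 and 298 in A-labelled and 225, 207 and 227 in B-labelled libraries. EIF4A3 was higher in A-labelled libraries (0.57 ± 0.09, limma adjusted p = 0.000467), while the B-labelled interval ran from −0.18 to 0.24.

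The helicase cofactors were higher in A-labelled libraries as well. EIF4B, with 39.9% of its windows shared with other genes, measured 262, 238 and 292 CPM in control, 441, 502 and 460 in A-labelled and 279, 299 and 278 in B-labelled libraries (0.82 ± 0.10 for A-labelled, limma adjusted p = 7.6e-05). EIF4H measured 134, 136 and 141 CPM in control, 201, 214 and 210 in A-labelled and 132, 122 and 131 in B-labelled libraries (0.60 ± 0.09, limma adjusted p = 0.000172). The A-labelled values of both lay above all others, and the A-labelled against B-labelled differences were 0.71 ± 0.10 and 0.70 ± 0.09 (limma adjusted p = 0.000387 and 0.000134).

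EIF4E, the cap-binding protein itself, measured 42.2, 41.6 and 41.5 CPM in control, 69.5, 71.0 and 67.6 in A-labelled and 51.3, 53.0 and 48.0 in B-labelled libraries. No groups overlapped, with fold changes of 0.72 ± 0.09 and 0.27 ± 0.09 (limma adjusted p = 6.4e-05 and 0.0312). The B-labelled call was lost in 9 of the 18 alternatives, with GC correction (adjusted p = 0.381), with that and the replicate block (0.338), with library totals alone (0.649), in a fit of the 6 libraries compared (0.0514), and without any 1 control (0.0689 to 0.0941) or B-labelled replicate 1 or 2 (0.102 and 0.0710). Its paralog EIF4E2, which represses initiation at the cap, measured 69.4, 64.7 and 65.3 CPM in control, 99.9, 86.7 and 94.0 in A-labelled and 74.0, 62.3 and 79.6 in B-labelled libraries. EIF4E2 was higher in A-labelled libraries (0.48 ± 0.11, limma adjusted p = 0.00306) and overlapped control in B-labelled libraries.

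The inhibitors that sequester eIF4E moved in opposite directions in the A-labelled libraries. EIF4EBP1 measured 67.0, 54.7 and 52.9 CPM in control, 104, 82.5 and 75.9 in A-labelled and 57.1, 46.1 and 57.6 in B-labelled libraries, and was higher in A-labelled libraries by 0.57 ± 0.14 (limma adjusted p = 0.00554). EIF4EBP2 measured 135, 156 and 164 CPM in control, 91.7, 110 and 106 in A-labelled and 134, 133 and 119 in B-labelled libraries, and was lower in A-labelled libraries by −0.56 ± 0.11 (limma adjusted p = 0.00136). Neither A-labelled group overlapped its controls. In B-labelled libraries EIF4EBP2 also lay below all controls but did not pass (−0.24 ± 0.11, limma adjusted p = 0.118). It did pass there with library totals alone (limma adjusted p = 0.0099) and with a GC correction and the replicate block together (0.0442).

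**Figure D3:**
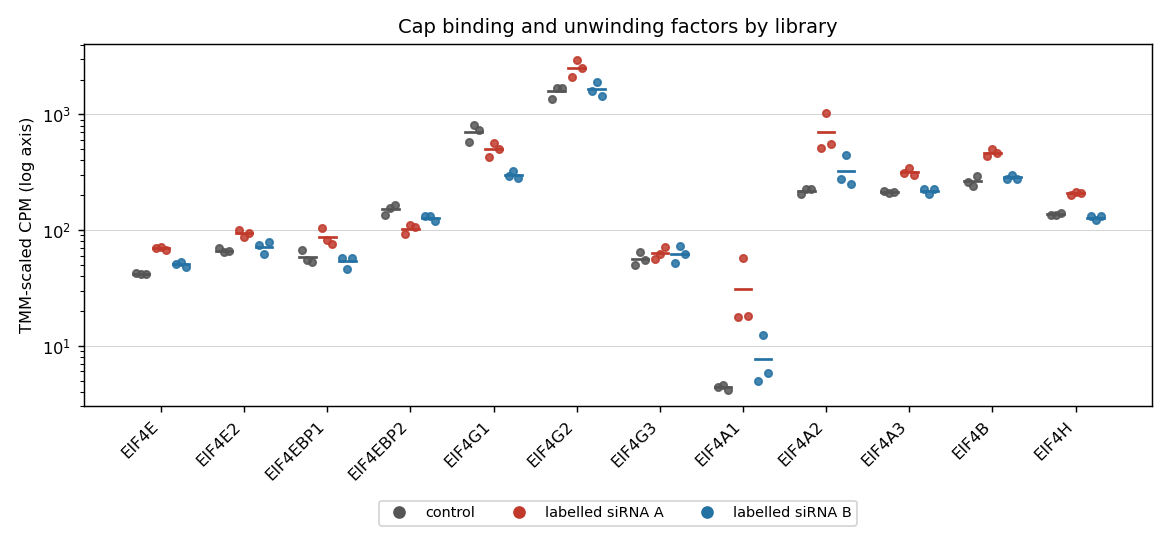
TMM-scaled CPM (log axis) of the 12 factors of cap binding and mRNA unwinding in each library, with a bar at the mean of the 3 libraries in control, A-labelled and B-labelled groups. EIF4G1 steps down over the 3 groups, and the second A-labelled library stands highest for EIF4A1 (57.5 CPM) and EIF4A2 (1037 CPM).

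Of the 12 factors of start site selection and the ternary complex, 6 were higher and 1 lower in A-labelled libraries, and 6 were higher and 2 lower in B-labelled libraries. These are 50% and 8.33% in A-labelled libraries, against 23.9% and 27.6% of all genes. In B-labelled libraries they are 50% and 16.7%, against 15.6% and 18.3%. EIF2S3 (chrX:24073063-24096927, GRCh37, plus strand), the GTP-binding gamma subunit of eIF2, measured 198, 182 and 207 CPM in control, 505, 575 and 528 in A-labelled and 390, 360 and 364 in B-labelled libraries. The groups were fully separated, with fold changes of 1.45 ± 0.10 and 0.92 ± 0.10 (limma adjusted p = 2.12e-06 and 5.1e-05), and of 1.08 and 0.71 with library totals alone. EIF2S1, the alpha subunit whose phosphorylation shuts down initiation, measured 237, 236 and 220 CPM in control, 337, 331 and 358 in A-labelled and 260, 236 and 256 in B-labelled libraries. EIF2S1 was higher in A-labelled libraries (0.56 ± 0.09, limma adjusted p = 0.000369) and overlapped control in B-labelled libraries. The beta subunit EIF2S2, at 50.9 to 93.0 CPM over all libraries, overlapped in every comparison (0.25 for A-labelled, 95% interval −0.16 to 0.66), and passed in that comparison only with the replicate number as a block (limma adjusted p = 0.281 without and 0.047 with it).

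The exchange factor eIF2B reloads eIF2 with GTP. Of its 5 subunits, 1 was higher and 1 lower in A-labelled libraries (median −0.23), and 1 was higher and 2 lower in B-labelled libraries (median −0.16). In A-labelled libraries these are 20% and 20%, near the 23.9% and 27.6% of all genes. In B-labelled libraries they are 20% and 40%, against 15.6% and 18.3% of all genes. EIF2B4, the delta subunit, measured 50.3, 50.7 and 48.8 CPM in control, 88.6, 104 and 85.1 in A-labelled and 61.2, 76.8 and 69.0 in B-labelled libraries. EIF2B4 was higher in both (0.87 ± 0.11 and 0.45 ± 0.11, limma adjusted p = 8.39e-05 and 0.00872), with no overlap between any groups. EIF2B3, the gamma subunit of the catalytic pair, measured 25.6, 20.02 and 19.3 CPM in control, 20.7, 14.3 and 18.3 in A-labelled and 13.3, 12.8 and 15.6 in B-labelled libraries, and was lower in B-labelled libraries (−0.60 ± 0.15, limma adjusted p = 0.0117).

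EIF2B1, the alpha subunit, was lower in both, by −0.40 ± 0.10 and −0.29 ± 0.10 (limma adjusted p = 0.00582 and 0.0403). The B-labelled call was lost in 7 of the 18 alternatives, in a fit of the 6 libraries compared (adjusted p = 0.0575) and without any 1 control (0.0511 to 0.115), A-labelled replicate 1 (0.0564) or B-labelled replicate 1 or 2 (0.0676 and 0.115). EIF2B5, the catalytic epsilon subunit, lay below all controls in A-labelled libraries at −0.23 ± 0.09. It did not pass there (limma adjusted p = 0.0542) but did with the replicate block (0.0459), with library totals alone (0.000459), without the filter on low values (0.0457) and without B-labelled replicate 2 (0.0470). EIF2B2, the beta subunit, did not pass against control in either group (0.25 and −0.16). It did pass as higher in A-labelled libraries without A-labelled replicate 3 (limma adjusted p = 0.0214). With library totals alone it passed as lower in B-labelled libraries (limma adjusted p = 0.0258). EIF1 and its paralog EIF1B guard the choice of start codon. EIF1 measured 336, 253 and 280 CPM in control, 477, 379 and 428 in A-labelled and 449, 346 and 455 in B-labelled libraries, and was higher in both (0.57 ± 0.14 and 0.52 ± 0.14, limma adjusted p = 0.00624 and 0.015). The B-labelled call was lost when control replicate 2 or 3 or B-labelled replicate 1 or 3 was left out (adjusted p = 0.0516 to 0.0726), and both calls with library totals alone.

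EIF1B measured 30.6, 22.9 and 32.2 CPM in control, 40.2, 30.6 and 38.4 in A-labelled and 47.7, 47.6 and 46.4 in B-labelled libraries. Its order differed from that of most factors, with the B-labelled libraries highest (0.72 ± 0.14, limma adjusted p = 0.00231), while its A-labelled difference of 0.35 ± 0.14 did not pass (limma adjusted p = 0.0577). The latter did pass with the replicate block (0.0194, and 0.0397 with a GC correction added), with DESeq2 size factors (0.0398), without control replicate 3 (0.0427) and without A-labelled replicate 2 (0.0214). EIF5, the GTPase activator of eIF2, had the same order: 427, 345 and 401 CPM in control, 618, 476 and 579 in A-labelled and 674, 707 and 749 in B-labelled libraries. EIF5 had fold changes of 0.51 ± 0.12 and 0.86 ± 0.12 (limma adjusted p = 0.00506 and 0.000359), and lower in A-labelled than in B-labelled libraries by −0.35 ± 0.12 (limma adjusted p = 0.0418). This last call was lost in 8 of the 18 alternatives, without the filter (adjusted p = 0.0505), in a fit of the 6 libraries compared (0.0558), and without control replicate 3 (0.0604), A-labelled replicate 2 or 3 (0.147 and 0.0644) or any 1 B-labelled library (0.0665 to 0.120).

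EIF1AX, the eIF1A that opens the scanning complex, measured 53.8, 43.3 and 46.2 CPM in control, 96.7, 80.4 and 95.9 in A-labelled and 65.3, 57.8 and 66.3 in B-labelled libraries. Its fold changes were 0.92 ± 0.12 and 0.40 ± 0.12 (limma adjusted p = 7.9e-05 and 0.0201), with no overlap between any groups. The B-labelled call was lost in 7 of the 18 alternatives, with GC correction (adjusted p = 0.121, and 0.0518 with the replicate block added), with library totals alone (0.292), and without control replicate 2 or 3 (0.0948 and 0.0665) or B-labelled replicate 1 or 3 (0.0765 and 0.0641). The factors that act last in initiation were higher in A-labelled libraries. EIF5B, the GTPase of subunit joining, measured 804, 583 and 787 CPM in control, 1185, 904 and 1095 in A-labelled and 795, 753 and 897 in B-labelled libraries (0.55 ± 0.15 for A-labelled, limma adjusted p = 0.00895). EIF6, which keeps free large subunits apart, measured 100.2, 86.1 and 80.2 CPM in control, 158, 154 and 125 in A-labelled and 117, 91.6 and 124 in B-labelled libraries (0.71 ± 0.14, limma adjusted p = 0.00139). In B-labelled libraries both overlapped control and neither passed the test. EIF6 did pass there with a GC correction, with or without the replicate block, and without B-labelled replicate 2 (lowest limma adjusted p = 0.00447).

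**Figure D4:**
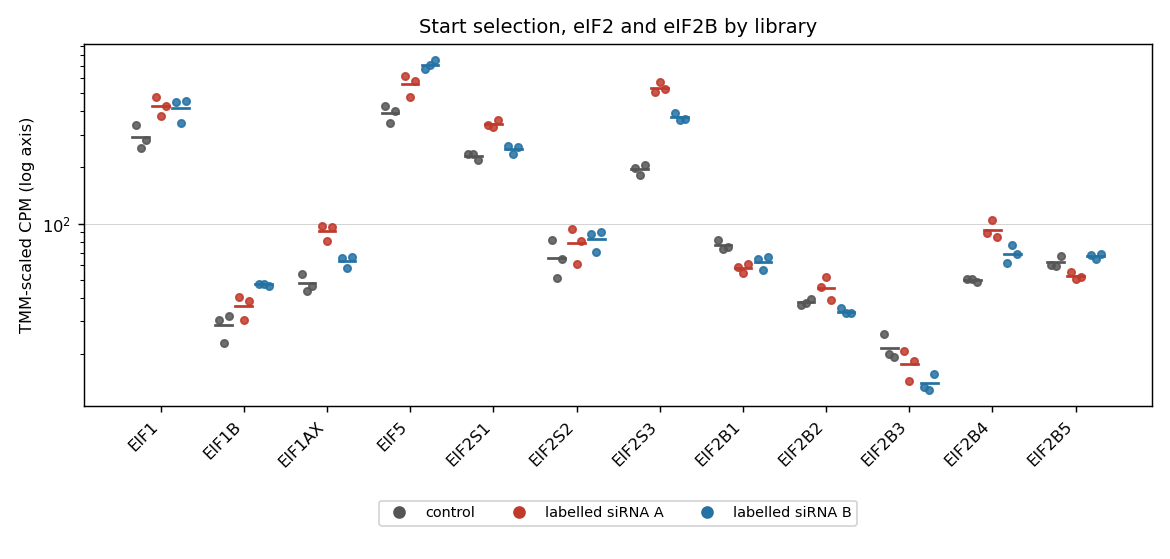
TMM-scaled CPM (log axis) of the 12 factors of start site selection, the ternary complex and eIF2B in each library, with a bar at the mean of the 3 libraries in control, A-labelled and B-labelled groups. EIF2S3 separates the 3 groups, and EIF1B and EIF5 are highest in the B-labelled libraries.

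Of the 7 elongation and termination factors with a row, 6 were higher and 1 lower in A-labelled libraries, 5 were higher and none lower in B-labelled libraries, and 2 were higher in A-labelled than in B-labelled libraries. EEF1A1 (chr6:74199031-74235310, GRCh37, minus strand), the carrier of aminoacyl-tRNA, measured 276, 247 and 276 CPM in control, 683, 1195 and 676 in A-labelled and 558, 598 and 558 in B-labelled libraries. No groups overlapped, and A-labelled replicate 2 stood far above its group. EEF1A1 had fold changes of 1.62 ± 0.18 and 1.10 ± 0.18 (limma adjusted p = 3.9e-05 and 0.00091), and of 1.35 for A-labelled libraries without that replicate. The difference between A-labelled and B-labelled libraries (0.52 ± 0.18, limma adjusted p = 0.0433) became 0.25 without it (adjusted p = 0.0924). That call was lost in 10 of the 18 alternatives in all, also with GC correction (0.0564), with library totals alone (0.0971), without the filter (0.0540), in a fit of the 6 libraries compared (0.0672), and without control replicate 2 or 3 (0.0504 and 0.0613) or any 1 B-labelled library (0.0572 to 0.103).

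EEF1B2 and EEF1D recharge eEF1A with GTP. EEF1B2 measured 123, 111 and 137 CPM in control, 206, 223 and 167 in A-labelled and 193, 218 and 172 in B-labelled libraries. EEF1B2 had fold changes of 0.67 ± 0.13 and 0.65 ± 0.13 (limma adjusted p = 0.00139 and 0.00324), and the A-labelled and B-labelled libraries differed by 0.03 with a 95% interval of −0.26 to 0.32. EEF1D measured 247, 205 and 246 CPM in control, 316, 291 and 283 in A-labelled and 362, 342 and 379 in B-labelled libraries, with fold changes of 0.35 ± 0.10 and 0.64 ± 0.10 (limma adjusted p = 0.014 and 0.000798), although the A-labelled value turned to −0.01 with library totals alone. The A-labelled call was also lost without control replicate 2 (adjusted p = 0.0620) or A-labelled replicate 1 (0.0575). EEF1A1 and EEF1B2 share 37.2% and 62.2% of their windows with other annotated genes, so the levels of both are uncertain.

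EIF5A, which relieves ribosomes stalled at proline runs, measured 521, 446 and 438 CPM in control, 997, 1100 and 796 in A-labelled and 657, 499 and 609 in B-labelled libraries. EIF5A was higher in A-labelled libraries (1.03 ± 0.15, limma adjusted p = 0.000161), and overlapped control in B-labelled libraries (0.32, 95% interval 0.01 to 0.64, limma adjusted p = 0.106). The B-labelled difference did pass with a GC correction, with or without the replicate block, and without B-labelled replicate 2 (lowest limma adjusted p = 0.00817). The level of EIF5A is uncertain, with 42.8% of its windows shared with other genes. EEF2, the translocase, ran from 2356 to 2763 CPM in control, 3266 to 3525 in A-labelled and 3196 to 3436 in B-labelled libraries, with fold changes of 0.44 ± 0.12 and 0.41 ± 0.12 (limma adjusted p = 0.0109 and 0.0236). Both calls were lost with library totals alone (fold changes 0.07 and 0.20), and the B-labelled call also without the filter (adjusted p = 0.0571), without control replicate 1 or 2 (0.0719 and 0.0793) and without B-labelled replicate 1 or 3 (0.0790 and 0.0688). Its kinase EEF2K, which switches eEF2 off, measured 26.7, 43.3 and 31.3 CPM in control, 19.5, 24.5 and 24.1 in A-labelled and 20.4, 29.6 and 22.6 in B-labelled libraries.

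EEF2K was lower in A-labelled libraries by −0.53 ± 0.18 (limma adjusted p = 0.0283), with no overlap. Leaving out control replicate 2 (adjusted p = 0.126), control replicate 3 (0.0521) or A-labelled replicate 1 (0.101) ended that call. In B-labelled libraries it stood at −0.45 ± 0.18 and did not pass (limma adjusted p = 0.0748). That difference did pass in 5 of the 18 alternatives (lowest limma adjusted p = 0.00611). These were library totals alone, the replicate block, that block with a GC correction, and fits without control replicate 1 or B-labelled replicate 2. ETF1, the release factor that reads stop codons, had fold changes of 0.48 ± 0.09 and 0.29 ± 0.09 (limma adjusted p = 0.00105 and 0.0272). Both were lost with library totals alone, and the B-labelled call also without control replicate 1 or 2 (adjusted p = 0.0882 and 0.0890) or B-labelled replicate 1 (0.104). Per kilobase of the canonical transcript, EEF2 had the highest counted control level of the 46 factors at 797 CPM per kilobase (SD 68.3, n = 3). It was followed by EIF4G2 at 418 (SD 52.2) and EIF5A at 370 (SD 36.1), the last being uncertain for its shared windows. EIF3B stood at 162 (SD 3.995). EEF1A1 stood at 75.8 (SD 4.84) with 37.2% of its windows shared with other genes, so its place in this order is uncertain as well. The lowest were EIF4A1 at 2.49 and EIF3C at 1.03, the factors whose windows are almost all shared with other genes.

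**Figure D5:**
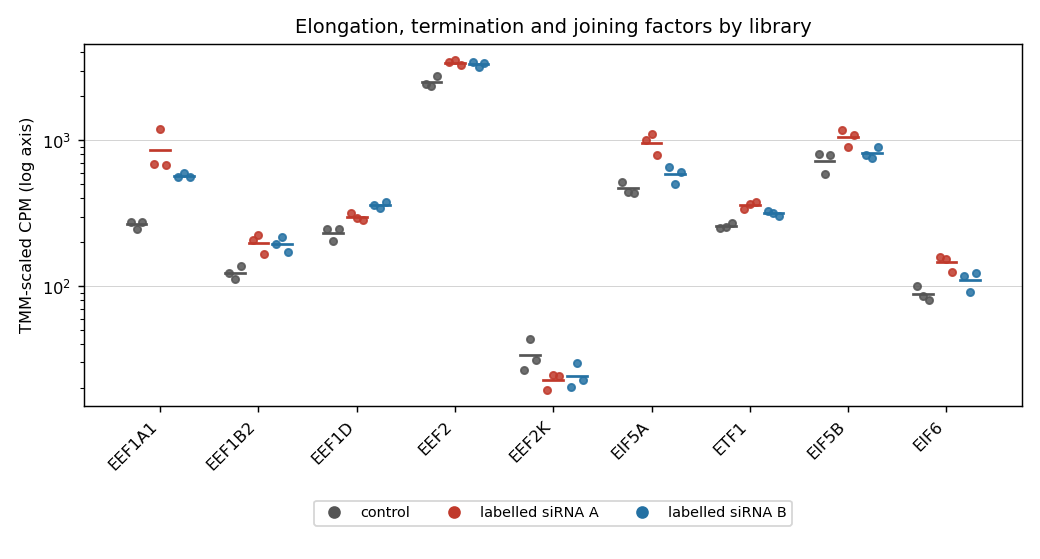
TMM-scaled CPM (log axis) of the elongation, termination and subunit joining factors in each library, with a bar at the mean of the 3 libraries in control, A-labelled and B-labelled groups. EEF1A1 is higher in all 6 siRNA libraries than in any control, and EEF2K is the one factor with lower means in both siRNA groups.

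A list of 8 factors with a row that textbooks name as TOP mRNAs had all 8 higher and none lower in A-labelled libraries (median 0.77), and 6 higher and none lower in B-labelled libraries (median 0.53). Of all genes tested, 23.9% were higher in A-labelled and 15.6% in B-labelled libraries. With library totals alone, 5 were higher and none lower in each. The list was drawn up with earlier results of these data known and overlaps the C-start factors above. Its members EEF1A1, EEF2, EIF3F and EIF4B had the C start, EEF1B2 did not, and EEF1D, EIF3E and EIF3H had no window.

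Of 48 other genes of the pathway with a row, 23 were higher and 12 lower in A-labelled libraries (median 0.23), and 15 were higher and 13 lower in B-labelled libraries (median 0.07). These are 47.9% and 25% in A-labelled libraries, against 23.9% and 27.6% of all genes. In B-labelled libraries they are 31.25% and 27.1%, against 15.6% and 18.3%. PPP1R15A, which directs a phosphatase to eIF2 alpha, measured 62.4, 35.6 and 58.7 CPM in control, 140, 152 and 99.2 in A-labelled and 122, 102 and 101 in B-labelled libraries, and was higher in both (1.32 ± 0.21 and 1.07 ± 0.21, limma adjusted p = 0.000308 and 0.00218). Among the 8 kinases and phosphatase subunits of eIF2 it was the one higher gene in each comparison with control, with 3 lower in A-labelled and 4 lower in B-labelled libraries. The lower counts are 37.5% and 50%, against 27.6% and 18.3% of all genes. EIF5A2, the paralog of EIF5A, measured 17.1, 16.1 and 20.5 CPM in control, 39.7, 38.1 and 44.7 in A-labelled and 20.8, 15.6 and 20.3 in B-labelled libraries. EIF5A2 was higher in A-labelled libraries than in control (1.15 ± 0.14, limma adjusted p = 5.48e-05) and than in B-labelled libraries (1.08 ± 0.14, limma adjusted p = 0.000156).

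EIF4E3, another cap-binding paralog, measured 7.66, 10.9 and 8.17 CPM in control, 3.88, 3.85 and 4.13 in A-labelled and 2.91, 3.81 and 2.37 in B-labelled libraries. EIF4E3 was lower in both, by −0.99 in A-labelled libraries and by −1.30 ± 0.16 in B-labelled libraries (limma adjusted p = 0.000162 for the latter). PELO, which rescues stalled ribosomes, was higher in A-labelled libraries than in control and in B-labelled libraries (0.99 ± 0.11 and 0.89 ± 0.11, limma adjusted p = 3.36e-05 and 0.000138). DPH2, needed for the diphthamide residue of eEF2, measured 64.0, 73.4 and 62.4 CPM in control, 56.8, 68.7 and 61.7 in A-labelled and 33.2, 33.2 and 31.1 in B-labelled libraries. DPH2 was lower in B-labelled libraries (−1.01 ± 0.11, limma adjusted p = 4.87e-05), and the A-labelled against B-labelled difference was 0.92 ± 0.11 (limma adjusted p = 9.39e-05).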

How the data were processed

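RNA from 9 HCT116 libraries (3 groups, 3 biological replicates each) was analysed from 1 deposited table of CPM values, reads per gene divided by the library total, as made by the authors. The submitters' processing notes name TopHat2 2, HTSeq 2 and the GRCh37 (hg19) build, without their roles, and the use of strand was not given in the sources used here. All values (100%, within 0.001 of a read) were whole reads, so the reads were recovered. The planned main test for CPM was used: limma 3.58.1 with a trended variance on log2(CPM + 1), a pseudocount of 1, after TMM scaling (edgeR 4.0.16), in 1 model of all 9 libraries with a mean per group. Tests covered genes that reached 1 CPM in 3 or more libraries, and p-values were Benjamini-Hochberg adjusted per comparison with a threshold of 0.05. edgeR quasi-likelihood on the recovered reads was run as an added alternative and called 7160, 4780 and 5105 genes, against 7145, 4719 and 5155 by limma for A against control, B against control and A against B. DESeq2 1.42.0 gave the alternative size factors. R 4.3.3 and Python 3.11.15 (numpy 2.4.6, pandas 2.3.3, matplotlib 3.10.9) were used, and scripts were tested on simulated data.

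The factors, gene lists and tests were chosen with earlier results of these data known. Values per library are given for factors past the threshold in some comparison with an absolute log2 fold change of at least 0.5 and for paralogs, and for the 3 other pathway genes with the largest change in each comparison. All 9 columns were used (0 left out). Of 15354 identifiers, 14871 matched a symbol of GENCODE lifted to GRCh37, and transcript windows of 50 bases were compared with all annotated transcripts. Over 20% of windows were shared for 14 of 46 factors and none for 11. Exons of 30 factors overlap an exon of another gene, 11 of them on the same strand, where the counting could have lost or split reads. A level of 1 CPM stood for 15.6 to 23.3 reads, which covers counting error only, without molecular identifiers. Libraries of a group correlated with r from 0.983 to 0.994 and differed beyond sampling noise (chi-square per degree of freedom at least 13.0).

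Same-numbered libraries were checked for pairing by the correlation of their deviations from the group means. Between control and siRNA A it was 0.65, 0.41 and 0.13. Between control and siRNA B it was 0.17, 0.44 and −0.39, and between A and B 0.20, 0.44 and 0.02. Correlations of unlike-numbered libraries were not computed, so these values cannot decide whether the numbers pair the libraries. The main fit is unpaired, and the replicate block is given as an alternative. EEF1G and EIF3CL were not analysed here.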

Additional observations from a re-analysis of the deposited data

How the results depend on the processing

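Over 18 alternatives, 45 of the 87 calls held under all and 65 under all but library totals alone. edgeR on recovered reads and a pseudocount of 0.1 changed no call. With library totals alone 13 factors were higher for A-labelled and 9 higher and 9 lower for B-labelled libraries, and of the other pathway genes 11 were higher and 19 lower for A, 6 higher for B and 8 higher for A against B. Leaving out 1 library gave 10 to 18 higher for B (10 without control replicate 2, 11 without B-labelled replicate 1), 2 to 5 lower for A against B (2 without A-labelled replicate 2 or 3 or B-labelled replicate 1 or 3) and 7 to 12 other pathway genes lower for A (7 without control replicate 2 or 3). The fewest reads of a factor in a library were 55 (EIF3C). Sequence shared with other genes limits 14 factors with over 20% of windows shared, EIF4A1 and EIF3C most.

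With the replicate block 35 factors were higher and 7 lower for A-labelled libraries, 20 and 5 for B-labelled, and 25 and 7 for A against B, where the lower count moved from 4. For A against control, the block added the calls given above for EIF1B, EIF2S2, EIF2B5 and EIF3K and removed none.

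Of 138 fold changes, 29 turned sign under some setting, all at most 0.35 in size, and 2 of these were calls (EIF3D and EEF1D for A). With library totals alone, fold changes for A against control became −0.012 (EIF1B), −0.11 (EIF2S2), −0.11 (EIF2B2), −0.038 (EIF3D), −0.024 (EIF3K), −0.20 (EIF4G3) and −0.013 (EEF1D). For B against control they became −0.096 (EIF2S1), −0.092 (EIF2B5), −0.059 (EIF3A), −0.090 (EIF3F), −0.14 (EIF3K), −0.10 (EIF3M), −0.10 (EIF4E2), −0.16 (EIF4G2), −0.073 (EIF4G3), −0.18 (EIF4A3), −0.097 (EIF4B) and −0.032 (EIF5B). For A against B they became −0.11 (EIF1), −0.066 (EIF3G), −0.13 (EIF4G3), −0.13 (EEF1B2) and −0.13 (EEF2). With a GC correction, with or without the replicate block, B against control gave −0.0017 (EIF2S1), −0.012 (EIF3M) and 0.073 (EIF4EBP1). Leaving out 1 library gave, for A against control, −0.24 to 0.17 (EIF3J). It gave, for B against control, −0.052 to 0.33 (EIF3A), −0.014 to 0.22 (EIF3F), −0.025 to 0.24 (EIF3K) and −0.058 to 0.14 (EIF4G2). It gave, for A against B, −0.086 to 0.13 (EIF1), −0.23 to 0.075 (EIF2S2), −0.094 to 0.031 (EIF3D), −0.0039 to 0.18 (EIF3G), −0.090 to 0.14 (EIF4G3), −0.060 to 0.15 (EEF1B2), −0.00033 to 0.061 (EEF2) and −0.18 to 0.067 (EEF2K). The cause was not tested, beyond the fewer samples or the other scaling that an alternative sets.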
